A study of Mus musculus with 2 samples.

Results

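Hereditary cerebellar ataxias are disorders of balance and coordination in which the cerebellum and its connections in the brainstem degenerate. The 8 mouse genes described here are the counterparts of human genes whose mutation causes such ataxias. They were chosen by name, as ataxins (Atxn1, Atxn2, Atxn3, Atxn7 and Atxn10) and as ataxia genes of DNA repair (Atm, Aptx and Tdp1), and not by any measured value. All 8 were found by Ensembl identifier among the 43346 mouse genes of the deposited tables, and together they had 45 listed transcripts.

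The RNA came from the hindbrain (cerebellum, pons and medulla) of healthy newborn mice of strain B6NTac;B6NCrl/Lap, aged 0 day, with both sexes pooled, and the labels name no treatment or mutation. There were 2 libraries of this single group, called replicate 1, from 15 mice, and replicate 2, from a pool whose size the labels do not give. Each was made from RNA over 200 nt after ribosomal RNA had been depleted, and was sequenced as stranded read pairs. The labels number the libraries as biological replicates 1 and 2, from independent isolates of hindbrain tissue. Both libraries nevertheless carry one donor identifier, so their spread may be technical in part. The series holds no second condition, and the smallest p that an exact sign-flip test of 2 libraries allows is 0.5, so levels are described without p-values.

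The expected counts, which are estimated numbers of fragments per gene, summed to 54313140 in replicate 1 and 77142270 in replicate 2. All 10 markers of hindbrain and cerebellum were at 1 TPM or more in both libraries, TPM being a level per length of transcript that has the same sum in each library. The same held for 8 of 8 Purkinje cell markers, 1 of 8 forebrain markers (Neurod6) and 0 of 6 markers of spinal cord and trunk, of which 5 had no counts. It also held for all 6 markers of dividing cells and for 6 of 8 of the granule cell lineage, where Gabra6 had no counts and Cbln3 had 297 and 144. All 5 markers of neurons, all 5 of astrocytes and radial glia and all 5 of the oligodendrocyte lineage were at that level too. So were 3 of 4 markers of blood, with Hba-a2 at 490 and 385 TPM. Of 21474 protein-coding genes, 54.7% were at 1 TPM or more in both libraries. In a whole tissue, fewer cells of a type and less RNA per cell cannot be told apart.

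The ataxins are not one protein family: most were named for the spinocerebellar ataxia in which each was found. In several of these disorders a run of CAG codons in the human gene lengthens, so that the protein carries a longer glutamine tract, and in the disorder of ATXN10 the repeat that lengthens lies in an intron. Ataxin-1 is a repressor of transcription that acts with Capicua (Cic), ataxin-2 binds RNA and the poly(A)-binding protein, ataxin-3 removes ubiquitin from proteins, and ataxin-7 belongs to the SAGA coactivator complex. The repair genes act on broken DNA: Atm is the kinase that signals double-strand breaks, Aptx (aprataxin) removes AMP left on DNA ends by a failed ligation, and Tdp1 frees DNA ends from trapped topoisomerase I.

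The longest runs of glutamine codons in the 4 polyglutamine ataxins are shown because the human genes are known for such runs. The longest run in a mouse gene need not be the counterpart of the human tract. They were read from the coding sequences of GENCODE M21 on GRCm38 (mm10), for the coding transcript of each gene with the most counts, with 30 bases on each side. Capitals mark the longest run of the glutamine codons CAG and CAA, and each sequence is written 5′ to 3′ on the strand of the gene.
Atxn1: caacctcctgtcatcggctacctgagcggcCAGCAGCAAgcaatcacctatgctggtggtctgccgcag
Atxn2: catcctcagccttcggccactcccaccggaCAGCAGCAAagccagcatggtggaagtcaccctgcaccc
Atxn3: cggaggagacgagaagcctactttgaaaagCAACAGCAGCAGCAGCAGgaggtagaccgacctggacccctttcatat
Atxn7: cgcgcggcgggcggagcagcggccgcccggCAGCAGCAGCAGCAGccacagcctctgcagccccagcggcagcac

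The longest run was in Atxn3-201, where codons 292 to 297 of 355 (chr12:101926563-101926580, minus strand) held 5 CAG codons after 1 CAA. In Atxn7-201 the run was 5 CAG codons, at codons 25 to 29 of 867 (chr14:14013156-14013170, plus strand), near the start of the protein. Atxn1-201 and Atxn2-201 had runs of 3 codons only, 2 CAG and 1 CAA each. The run of Atxn1-201 lay at codons 444 to 446 of 791 (chr13:45567080-45567088, minus strand). The run of Atxn2-201 lay at codons 1129 to 1131 of 1286 (chr5:121810946-121810954, plus strand), and a second run in that transcript was as long. The number of glutamine codons in all was 48 in Atxn1-201, 80 in Atxn2-201, 29 in Atxn3-201 and 38 in Atxn7-201. These are reference sequences and not reads of these mice, and whether the runs of Atxn1 and Atxn2 stand where the human tracts do was not compared.

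All 8 genes were present at 1 TPM or more in both libraries, as were 54.7% of 21474 protein-coding genes. Their median level was 3.83 TPM in replicate 1 and 2.91 TPM in replicate 2 (3.42 ± 0.654, SD of the libraries' medians, n = 2). The median over all protein-coding genes was 2.08 TPM, and 8.12 TPM over those present in both libraries. Levels below are in TPM unless another unit is named, as mean ± SD with n = 2. A typical coding gene had a TPM 1.44-fold lower in replicate 2 than in replicate 1 (median log2 ratio of -0.52), and 7 of the 8 genes were lower in replicate 2. Of 17632 genes with a mean count of 10 or more, 40.7% were past 1.5-fold lower there by TPM and 9.49% past it higher.

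Atxn10 (ENSMUSG00000016541, chr15:85336245-85463212, plus strand) stood far above the others. Its product is a cytoplasmic protein of armadillo repeats that is needed for the survival of cerebellar neurons in culture. It had 9114 expected counts in replicate 1 and 11819 in replicate 2, which were 52.7 and 33.6 TPM (43.2 ± 13.5). This level was above that of 95.8% of protein-coding genes, and Atxn10 held 44.8% and 42.8% of all counts on the 8 genes in replicates 1 and 2. The gene has a single listed transcript, of 2425 nt, so that no division of reads among its transcripts enters the value.

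Atxn2 (ENSMUSG00000042605, chr5:121711337-121816493, plus strand) was the second by TPM, at 27.1 and 23.7 TPM (25.4 ± 2.36) from 2647 and 4124 expected counts. It lay above 91.5% of coding genes. Its distance from the other genes depended on the measure, since much of its TPM came from short transcripts, as the shares given below show.

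Atxn1 (ENSMUSG00000046876, chr13:45549755-45965008, minus strand) had 3723 and 5299 expected counts, more than Atxn2, but on transcripts of 10456 to 10605 nt. Its level was 4.43 TPM in replicate 1 and 3.12 TPM in replicate 2 (3.78 ± 0.926). Atxn3 (ENSMUSG00000021189, chr12:101918901-101958246, minus strand) had 960 and 1557 expected counts, and 2.32 and 4.63 TPM (3.48 ± 1.63). It was the only one of the 8 whose TPM was higher in replicate 2. Atxn7 (ENSMUSG00000021738, chr14:13961440-14107302, plus strand) was the lowest of the 8, with 841 and 1105 expected counts, and 1.57 and 1.02 TPM (1.30 ± 0.389). Like Atxn10 it has a single listed transcript.

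Of the repair genes, Tdp1 (ENSMUSG00000021177, chr12:99884517-99955219, plus strand) was at 4.04 and 2.69 TPM (3.37 ± 0.955) from 523 and 887 expected counts. Aptx (ENSMUSG00000028411, chr4:40682382-40703194, minus strand) was at 3.62 and 2.53 TPM (3.08 ± 0.771) from 731 and 871 expected counts. Atm (ENSMUSG00000034218, chr9:53439149-53536740, minus strand) was at 2.35 and 1.20 TPM (1.78 ± 0.813) from 1791 and 1932 expected counts. The repair genes thus fell in the same range as Atxn1, Atxn3 and Atxn7, between the percentiles of 45.1 for Atxn7 and 58.5 for Atxn1 among coding genes.

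**Figure D1:**
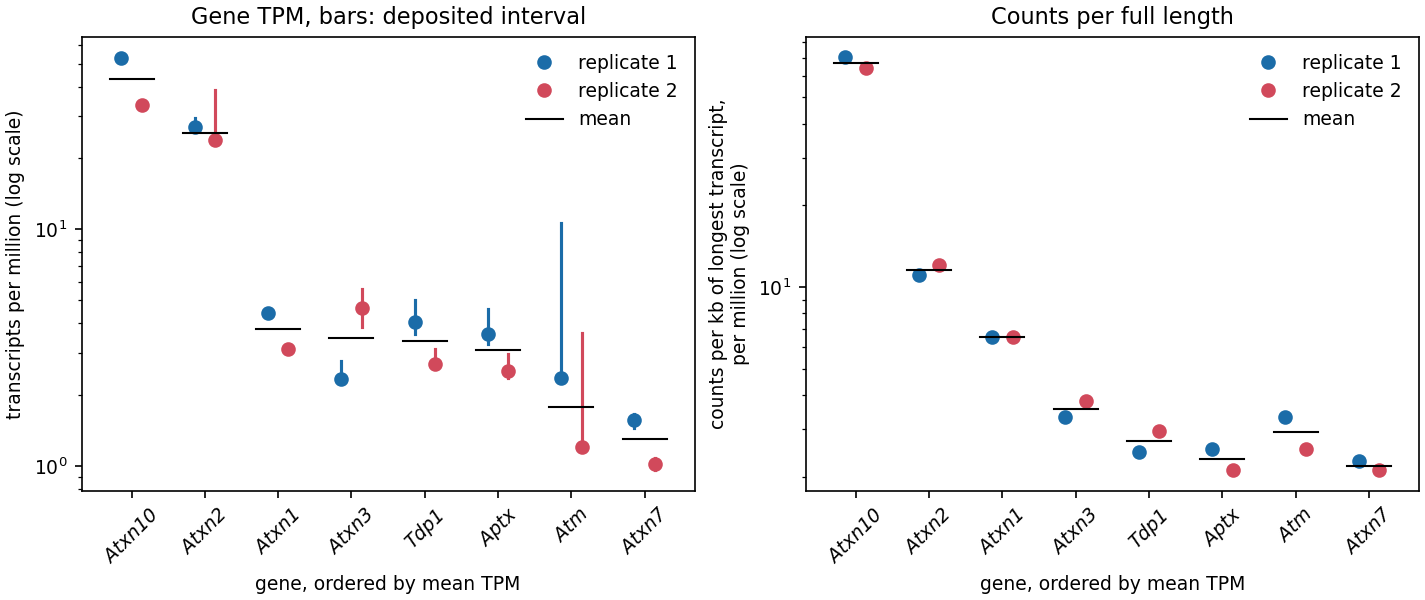
Level of each gene in replicate 1 (blue) and replicate 2 (red), with the mean as a black line, on log axes. Left, TPM with the interval deposited by the authors as vertical bars; right, expected counts per kilobase of the longest listed transcript, scaled for depth. Atxn10 is the highest by both measures, Atm has the longest interval on this scale, and the libraries lie closer together on the right.

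In order of mean TPM the genes ran Atxn10, Atxn2, Atxn1, Atxn3, Tdp1, Aptx, Atm and Atxn7. Neighbours were taken to differ beyond their spread where both libraries gave the same order and the mean log2 ratio between them was over 2 SD. By this rule Atxn10 was above Atxn2 (log2 ratio 0.73 ± 0.33), Atxn2 above Atxn1 (2.77 ± 0.22), Tdp1 above Aptx (0.12 ± 0.05) and Aptx above Atm (0.85 ± 0.32). Atxn1 and Atxn3 did not differ beyond their spread, nor did Atxn3 and Tdp1, nor Atm and Atxn7. With 2 libraries an SD is itself imprecise, so the rule describes these libraries only. The rule leaves out the deposited intervals, and those of Tdp1 and Aptx overlapped in both libraries, as did those of Aptx and Atm. In replicate 2 the interval of Atxn2 (23.0 to 38.7 TPM) also held that of Atxn10 (32.8 to 34.0 TPM).

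A measure that does not depend on how reads were divided among transcripts gave another order. Expected counts of the gene were divided by the library's counts on mouse genes, as CPM, and by the length in kilobases of the longest listed transcript. Atxn10 then had 70.1 and 63.9 of these counts per kilobase (67.0 ± 4.40), 5.79-fold the next, Atxn2, at 11.0 and 12.1 (11.6 ± 0.741). Atxn1 followed at 6.55 in both libraries, above Atxn3 at 3.34 and 3.81 (3.57 ± 0.330). These first 3 steps were each beyond the spread. Atm (2.93 ± 0.571), Tdp1 (2.71 ± 0.335), Aptx (2.33 ± 0.291) and Atxn7 (2.20 ± 0.124) came next, and no step from Atxn3 down to Atxn7 was. Aptx, above Atm in TPM, was thus below it in this measure. For Tdp1 the longest listed transcript is one that retains an intron, of 3945 nt, and dividing by it gives a lower value than the coding length would.

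Between Atxn10 and Atxn7, the top and the bottom by both measures, the range was 33.3-fold in TPM and 30.4-fold in counts per kilobase. The lead of Atxn10 over Atxn2 was 1.70-fold in TPM.

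Counts on the 8 genes differed little between the libraries once depth was taken into account. The log2 ratio of scaled counts, replicate 2 over replicate 1, was within 1.5-fold in either direction for all 8, so 0 of 8 were past that fold, as were 24.6% of 17632 genes with a mean count of 10 or more. Of those genes, 14.7% were past 1.5-fold with higher and 9.88% with lower counts in replicate 2. The median size of the log2 ratio was 0.16 over the 8 genes, 0.17 over genes with a mean count of 200 or more and 0.23 over all genes with a mean count of 10 or more. The 8 genes all had mean counts over 200, and their ratios were of the size usual at that depth.

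Atm differed most, with a log2 ratio of -0.40 (95% interval for counting error, -0.49 to -0.31), lower in replicate 2. Aptx was lower there by -0.26 (-0.40 to -0.11) and Atxn10 by -0.13 (-0.17 to -0.09). Tdp1 was higher in replicate 2 by 0.25 (0.10 to 0.41), Atxn3 by 0.19 (0.07 to 0.31) and Atxn2 by 0.13 (0.06 to 0.20). These 6 intervals left out 0, whereas those of Atxn1 (0.00, -0.06 to 0.06) and Atxn7 (-0.12, -0.25 to 0.02) did not. The intervals cover counting error only and hold nothing of the variation between pools of animals. The reads also carry no molecular identifiers, for which the intervals make no allowance.

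For Atxn3 the counts and the TPM did not tell the same story. Its scaled counts were close in the libraries, but its TPM in replicate 2 had a log2 ratio of 1.00 to that of replicate 1, or 1.52 once the ratio of the typical coding gene was subtracted. The effective length of the gene, by which its counts are divided, was 5049 nt in replicate 1 and 2036 nt in replicate 2. For Atm both measures gave the same picture, with -0.45 for TPM less the typical gene. By TPM as deposited, without that subtraction, 5 of the 8 genes were past 1.5-fold, as were 50.2% of genes. Of these, Atxn3 was higher in replicate 2 (9.49% of genes) and Atm, Atxn7, Atxn10 and Tdp1 were lower (40.7% of genes).

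**Figure D2:**
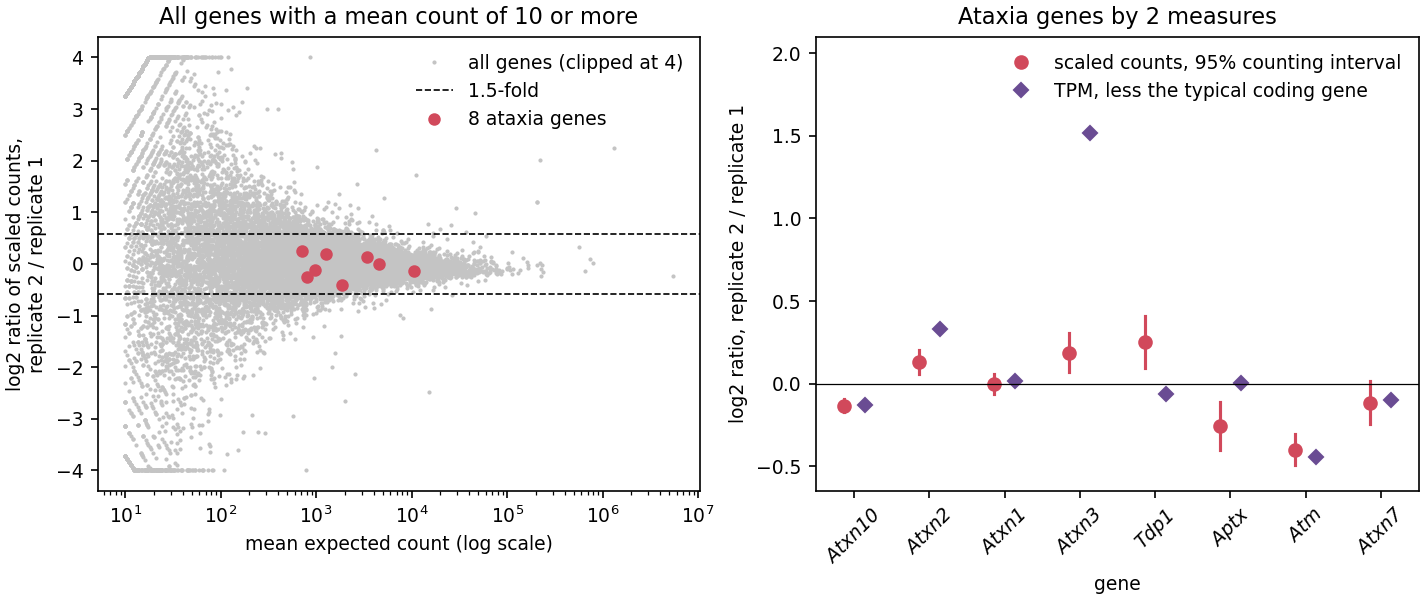
Log2 ratio of replicate 2 over replicate 1. Left, scaled counts of all genes with a mean count of 10 or more against the mean expected count, with the 8 ataxia genes in red and 1.5-fold as dashed lines; ratios past 4 are drawn at 4. Right, the 8 genes by scaled counts (red, with the 95% interval for counting error) and by TPM less the ratio of the typical coding gene (violet). All 8 lie within the dashed lines, and Atxn3 is the gene whose measures differ most, at 0.19 by counts and 1.52 by TPM.

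The transcripts of the genes were then compared. The deposited percentages give each transcript's share of the TPM of its gene, and the transcript with the highest share is called the main one here. Of the 6 genes with several listed transcripts, 4 had the same main transcript in both libraries (Aptx, Atm, Atxn1 and Atxn2), against 80.4% of 9107 coding genes with several transcripts and a mean count of 200 or more. The main transcript was of coding type in both libraries in 4 of 6 (Atm, Atxn1, Atxn2 and Tdp1), against 87.4% of the same genes. The largest change of a transcript's share between libraries had a median of 11.2 percentage points over the 6 genes and 11.9 over the coding genes. With the deposited posterior mean TPM in place of TPM, both counts were 2 of 6, against 79.7% and 86.1% of the same coding genes. Where transcripts of a gene share sequence, their values are estimates from reads that fit several of them. The sharing ranged widely: Tdp1-201 shares all of its stretches of 31 bases with Tdp1-207, Tdp1-206 shares 41.9% with it, and Atxn2-211 shares 42.2% with Atxn2-201.

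Atxn1 and Atm were each read almost wholly as 1 long coding transcript. Atxn1-201, of 10581 nt, had 98.1% and 94.1% of the TPM of the gene in replicates 1 and 2. Atm-201, of 10006 nt, had 95.6% and 100%. Its posterior mean share was 42.9% and 57.9%, because 52.2% and 38.3% went to Atm-202, a transcript of 281 nt that retains an intron and had 0 expected counts in both libraries. The deposited interval for Atm ran from 2.29 to 10.7 TPM in replicate 1 and from 1.21 to 3.65 TPM in replicate 2. The level of the gene is thus bounded far less well from above than that of Atxn10, whose intervals were 51.0 to 53.2 and 32.8 to 34.0 TPM. For Atm-201 alone the deposited intervals were narrow, at 2.11 to 2.32 TPM in replicate 1 and 1.14 to 1.25 TPM in replicate 2. Those of Atm-202, with effective lengths of 4.48 and 7.61 nt, reached up to 8.14 and 2.35 TPM.

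Atxn3 changed its main transcript between the libraries. Atxn3-201, the coding transcript of 5363 nt, had 960 expected counts and all of the TPM in replicate 1, and 1460 expected counts but 37.7% of the TPM in replicate 2. Atxn3-203, of 439 nt, is annotated as a target of nonsense-mediated decay, the pathway that destroys messages with an early stop codon. It had 0 counts in replicate 1, and 59.2 counts in replicate 2, which were 3.80% of the counts of the gene but 53.9% of its TPM (2.49 of 4.63). Of the 409 stretches of 31 bases in Atxn3-203, 368 also occur in Atxn3-201, so that 41 could tell the transcripts apart. By Atxn3-201 alone the level was 2.32 and 1.74 TPM (2.03 ± 0.410).

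Tdp1 also changed its main transcript, between near-identical ones. Tdp1-201 (2019 nt) had 245 expected counts in replicate 1 and 0 in replicate 2, while Tdp1-207 (2036 nt) had 121 and 546. Tdp1-201 lies wholly within Tdp1-207, and all of its 1989 stretches of 31 bases occur there. Together these 2 coding transcripts held 64.8% and 70.6% of the TPM of Tdp1. The remainder included Tdp1-206, which retains an intron and held 25.1% and 35.7% of the counts (10.9% and 19.5% of the TPM), and Tdp1-204, which retains an intron too and had 14.8% of the TPM in replicate 1 and 0 in replicate 2.

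In Aptx the highest TPM belonged to a transcript of non-coding type in both libraries. Aptx-205, of 1378 nt and annotated as a target of nonsense-mediated decay, had 61.4% and 72.9% of the TPM on 26.5% and 37.9% of the counts. Of its 1348 stretches of 31 bases, 1321 also occur in the coding transcript Aptx-201 (5250 nt). Aptx-201 had 51.9% and 35.4% of the counts but 25.9% and 14.9% of the TPM, and the coding Aptx-202 (5383 nt) had 9.62% and 10.9% of the TPM. The 3 coding transcripts of Aptx together held 73.4% and 61.9% of its counts and 37.5% and 25.7% of its TPM. Aptx-201 alone was at 0.94 and 0.38 TPM (0.660 ± 0.396).

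Atxn2 had the most listed transcripts, 17, of which 5 are coding, 6 retain an intron, 3 are processed transcripts, 2 are targets of nonsense-mediated decay and 1 is not in GENCODE M21. The coding transcript of full length, Atxn2-201 (4471 nt), took 55.6% (replicate 1) and 44.8% (replicate 2) of the counts, but only 16.0% and 11.3% of the TPM (4.32 and 2.68 TPM). The other 16 held 84.1% and 88.7% of the TPM. Among them were 3 short coding models, Atxn2-214 (1202 nt, 22.5% and 15.8% of the TPM), Atxn2-210 (795 nt, 20.5% and 11.5%) and Atxn2-208 (990 nt, 17.8% and 10.4%). These are the deposited lengths: in GENCODE M21 Atxn2-214 has 2343 nt and Atxn2-210 has 891 nt.

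The transcripts of Atxn2 outside the coding type had a larger share in replicate 2. Those 12, the one that is not in GENCODE M21 included, held 9.43% of the counts and 23.3% of the TPM in replicate 1, and 22.8% of the counts and 48.7% of the TPM in replicate 2. The 6 that retain an intron made up 8.89% and 18.0% of the counts, with Atxn2-211 at 9.57% and 13.2% of the TPM and Atxn2-215 at 4.11% and 10.1%. The transcript that M21 lacks (ENSMUST00000162995, 681 nt) had 1.76% of the TPM in replicate 1 and 12.7% in replicate 2.

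**Figure D3:**
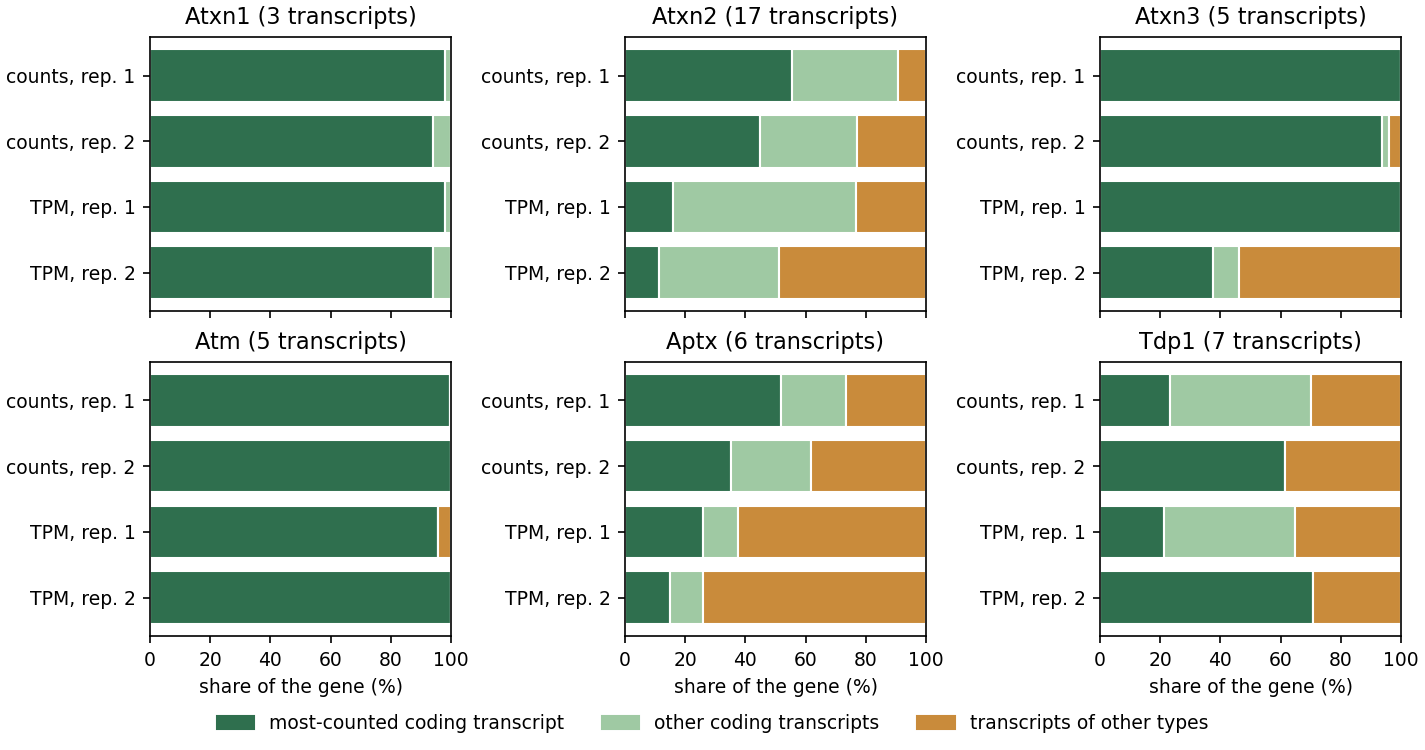
Shares of each gene's expected counts and of its TPM in both libraries, for the 6 genes with several listed transcripts. Dark green is the coding transcript with the most counts over both libraries, light green the other coding transcripts and orange transcripts of other types. The orange part is larger by TPM than by counts in Aptx and Atxn2, in replicate 2 for Atxn3, and in replicate 1 for Tdp1 and Atm.

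Taking only the coding transcript with the most counts, the levels were 43.2 TPM for Atxn10, 3.64 for Atxn1, 3.50 for Atxn2, 2.03 for Atxn3, 1.73 for Atm, 1.38 for Tdp1, 1.30 for Atxn7 and 0.660 for Aptx, which again lay below Atm. Atxn2 then no longer stood apart from Atxn1 (log2 ratio of Atxn1 over Atxn2, 0.07 ± 0.09), while Atxn10 stayed above both (3.56 ± 0.06 over Atxn1). By this measure 6 of the 8 were at 1 TPM or more in both libraries, as were 50.3% of coding genes by theirs. Tdp1-207 was below it in replicate 1, at 0.86 TPM, and Aptx-201 in both. This measure and the counts per kilobase of the longest transcript for single genes were chosen after the transcript values had been seen.

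Some of the genes share their position with a gene on the opposite strand, and whether counting used the strand is not given in the sources used here. Atxn1 overlaps Gmpr over 4046 nt at its 3′ end (628 and 1132 counts), Atxn2 overlaps Sh2b3 over 1006 nt (1557 and 2149 counts) and Atxn7 overlaps Thoc7 over 413 nt (507 and 673 counts). The other overlapping genes, Gm16552 in Atxn2 and Gm23517 in Atxn10, had no counts. Atm, Aptx, Tdp1 and Atxn3 overlapped none of the listed genes.

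Genes were next set against a relative or partner in the same library. Of 8 pairs, 6 differed in TPM beyond their spread, and 7 in counts per kilobase of the longest transcript. Atxn7 was 26.9-fold lower than Atxn7l3 (log2 ratio -4.75 ± 0.07), a subunit of the same deubiquitinating module of SAGA, which was at 40.9 and 28.4 TPM. Atxn3 was 13.3-fold lower than Vcp (-3.74 ± 1.06), the unfoldase to which ataxin-3 binds, at 52.1 and 36.6 TPM, and 19.4-fold lower in counts per kilobase.

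Atxn1 and its paralogue Atxn1l, which also binds Cic, did not differ beyond their spread in TPM, at 1.14-fold (0.18 ± 0.10), with Atxn1l at 3.72 and 2.88 TPM. Of nearly the same size, the difference was beyond the spread with posterior mean TPM (0.19 ± 0.09) and in counts per kilobase (0.20 ± 0.10). Atxn2 was 1.61-fold higher in TPM than its paralogue Atxn2l (0.69 ± 0.26), which was at 19.1 and 12.9 TPM. That order turned with the measure: in counts per kilobase of the longest transcript Atxn2 was 2.00-fold lower than Atxn2l (-1.003 ± 0.114), and with posterior mean TPM the difference was no longer beyond the spread (0.86 ± 0.43).

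Among the repair genes, Atm was 1.88-fold lower in TPM than Atr (-0.91 ± 0.30), the related kinase of replication stress, at 3.80 and 2.61 TPM. With posterior mean TPM that difference was not beyond the spread (-0.01 ± 0.51), and in counts per kilobase it was 1.27-fold (-0.35 ± 0.13). Atm and Prkdc, the catalytic kinase of end joining, at 1.95 and 1.21 TPM, did not differ beyond their spread (0.13 ± 0.20). The same held in counts per kilobase (0.13 ± 0.10), but with posterior mean TPM Atm was 2.13-fold higher (1.09 ± 0.46). The posterior mean TPM of Atm, 5.16 and 2.06, held 2.69 and 0.79 from Atm-202, which had 0 expected counts. For Atm-201 alone it was 2.22 and 1.20. Tdp1 was 1.43-fold lower in TPM than Tdp2 (-0.52 ± 0.11), which frees ends from topoisomerase II, at 5.47 and 4.06 TPM, and 2.68-fold lower in counts per kilobase. The latter measure divides the counts of Tdp1 by the 3945 nt of a transcript that retains an intron, which lowers its value and widens the gap.

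The other genes of these pathways were read from 5 lists. Beside each list stand the same shares: 54.7% of protein-coding genes were at 1 TPM or more in both libraries. Of all genes with a mean count of 10 or more, 24.6% were past 1.5-fold between libraries. Ratios were smaller in well-counted genes, with a median size of 0.17 at a mean count of 200 or more against 0.23 over all. Of 32 other ataxia genes, 30 were at 1 TPM or more in both libraries, with a median of 8.31 TPM. Among the highest were Eef2, the elongation factor of translation (496 ± 115 TPM), Ppp2r2b, a regulatory subunit of protein phosphatase 2A (38.0 ± 11.2), and Nop56, of the snoRNA complex (26.9 ± 8.55). The lowest were Coq8a (1.01 ± 0.106) and Tgm6, a transglutaminase with 3 and 12 counts (0.020 ± 0.014). None of the 31 with a mean count of 10 or more was past 1.5-fold between libraries.

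All 6 relatives of the ataxins were present, with a median of 10.5 TPM: Atxn7l3b (42.4 ± 10.5) and Atxn7l3 (34.6 ± 8.78) led, and Atxn7l2 (4.67 ± 1.62) and Atxn1l (3.30 ± 0.594) were the lowest. All 18 partner proteins were present, with a median of 16.2 TPM. The highest were Usp22, the deubiquitinase of SAGA (133 ± 44.7), Rad23b, a proteasome shuttle (68.7 ± 14.2), the ubiquitin ligase Stub1 (56.7 ± 15.8) and Vcp (44.3 ± 10.9). Supt3, a core subunit of SAGA, was the lowest (1.29 ± 0.191) and the only partner past 1.5-fold, higher in replicate 2 by a log2 ratio of 1.14 on 106 and 336 counts.

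Of 15 genes of single-strand break repair, the pathway of Aptx and Tdp1, 14 were present, with a median of 6.62 TPM. Pcna, the sliding clamp of replication, was the highest (36.2 ± 3.99), before Apex1 (19.3 ± 3.25), Parp1 (17.6 ± 4.29) and Lig3 (11.5 ± 4.03). Aplf was the lowest (0.770 ± 0.240), and none was past 1.5-fold between libraries. Aptx and Tdp1 were thus below the median of their own pathway list in these libraries.

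Of 19 genes of double-strand break signalling around Atm, 16 were present, with a median of 3.81 TPM. The highest were H2afx, the histone that Atm phosphorylates (69.8 ± 25.2), Trp53bp1 (53.5 ± 0.742), Kat5 (15.2 ± 5.85) and Cdkn1a (12.0 ± 2.54). The lowest were Rad50 (0.975 ± 0.262) and the checkpoint kinase Chek2 (0.660 ± 0.269). Chek2 was past 1.5-fold higher in replicate 2 (log2 ratio 1.34, 75 and 273 counts), and Chek1, named here after its values were seen, was past it lower (-0.60, 289 and 270 counts).

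**Figure D4:**
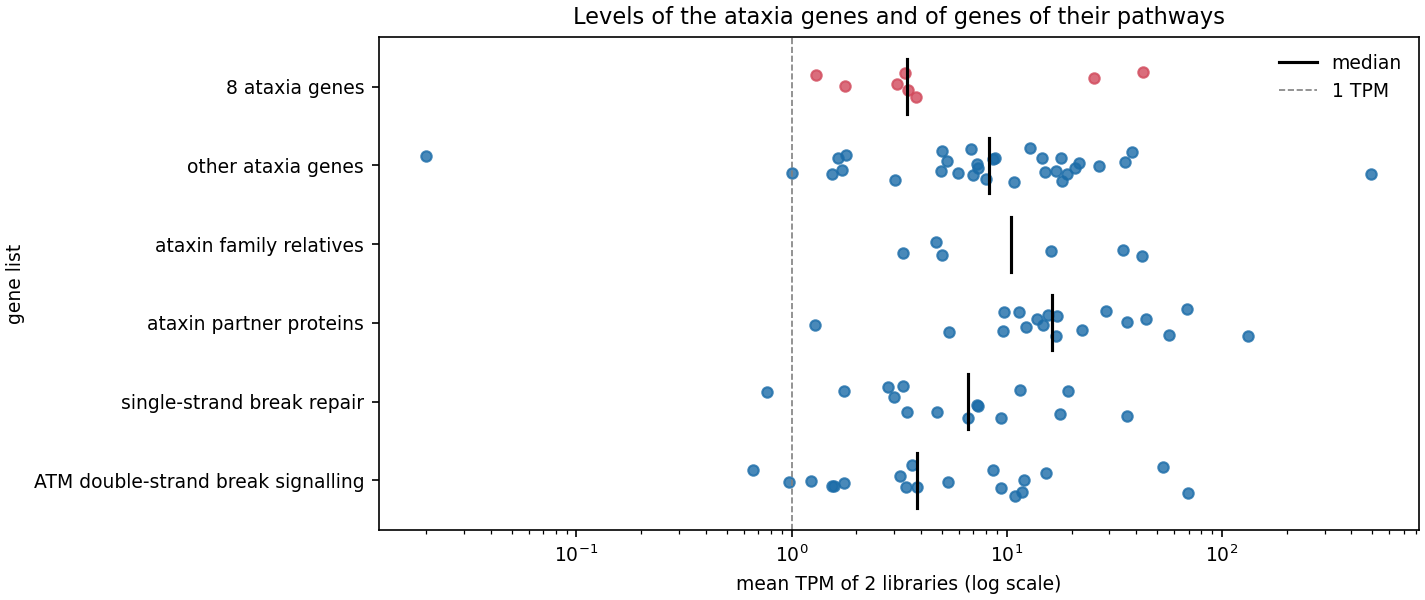
Mean TPM of the 2 libraries on a log axis for the 8 ataxia genes (red) and the genes of 5 related lists (blue), with each list's median as a black line and 1 TPM as a dashed line. The median of the 8 genes, 3.42 TPM, lies below the medians of all 5 lists, which run from 3.81 to 16.2 TPM.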

How the data were processed

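Per the deposited notes, alignments to the transcriptome (mm10, GENCODE M4) were quantified per gene and per transcript. The sources used here do not name the aligner or quantifier. Values deposited by the authors are, per the file headers, expected counts, TPM (over all rows, spike-ins included), posterior mean TPM, TPM interval bounds (a coverage signal whose level is not stated) and each transcript's percent of its gene's TPM. The deposited FPKM values were not used.

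Symbols, transcript types and coding sequences came from GENCODE M21, of the same genome build (98.0% of genes matched; 44 of 45 transcripts of the 8 genes, 35 of them with the deposited length). Rows naming no mouse gene (1.28% and 1.09% of counts) stayed out of library sizes.

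Ratios used counts rounded to whole numbers, TMM scaling (edgeR 4.0.16) and a prior count of 2, over genes with a mean count of 10 or more. Alternatives were DESeq2 1.42.0 size factors, total and ERCC spike-in scaling, other thresholds and posterior means. The ratio step was tested on simulated data. The libraries differed beyond sampling noise (chi-square of 105 per degree of freedom). Named were the 8 genes, their transcripts with 10% of TPM or more in either library, the pair genes and each list's 4 highest and 2 lowest genes; some results that this rule covers are not reported here. The genes and lists were chosen with earlier results of these data known.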

Additional observations from a re-analysis of the deposited data

How the results depend on the processing

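No paired analysis was possible because the series has 1 group and no groups are compared. With either library left out, all 8 genes were still at 1 TPM or more, which follows from their presence in both libraries. Their median level was then 2.91 to 3.83 TPM, the medians of the single libraries given above. Ratios between libraries and the agreement of main transcripts need both libraries and have no such value. At 5 TPM in both libraries 2 of 8 were present (32.4% of coding genes). The median level was 15.1 TPM when TPM was rescaled to coding genes of nuclear chromosomes, and 1.88 TPM for the coding transcript with the most counts, an alternative added after the data were seen. By deposited TPM, whose median shift over all genes was -0.51, 5 of 8 genes were past 1.5-fold, as were 50.2% of genes with a mean count of 10 or more: Atm (-0.97), Atxn10 (-0.65), Atxn7 (-0.62), Tdp1 (-0.59) and, in the other direction, Atxn3 (1.00). Less the typical coding gene, Atxn10, Atxn7 and Tdp1 were at -0.13, -0.10 and -0.06. Deposited TPM also turned the sign of Tdp1 (from 0.25) and Atxn2 (0.13 to -0.19), which were within 1.5-fold by counts. Less the typical coding gene, Atxn2 was at 0.33, with the same sign as by counts. The spike-in scaling moved the median of all genes by 0.11. None of the 8 was past 1.5-fold with it, with DESeq2 size factors or total counts, or with a prior count of 0.5. Nor was any past 1.5-fold with no filter, or past 2-fold (14.9% of genes were). Those last results follow from the main one, since all 8 passed the filter and none was past 1.5-fold. With posterior mean shares, 2 of 6 genes had the same main transcript in both libraries and 2 of 6 a coding one. Among the pairs, Atxn2 over Atxn2l reversed, at -1.003 in counts per kilobase. The cause was not tested.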
